A study of Mus musculus with 8 samples.

Results

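The cell cycle and proliferation genes described here are 47 genes that drive, carry out or restrain cell division, out of 22911 genes that probes of the array could be matched to by RefSeq accession. They were listed by name and function, not by their measured values, although earlier results of these data were known. Of these genes, 11 act in G1 and at the restriction point, 8 are cyclin-dependent kinase inhibitors or checkpoint genes, 9 serve DNA replication in S phase, and 19 act in G2 and mitosis (G2/M). Each gene was read through its brightest probe, the one with the highest mean over all arrays, and all 47 had at least 1 probe.

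The RNA came from pancreatic islets of male littermates aged 11 weeks, extracted right after isolation from 150 islets each time and hybridised to 8 one-colour Agilent arrays. The 4 control arrays held islets of Fbln5-floxed mice, and no Cre is stated for these mice in the sources used here. The 4 βFbln5KO arrays held islets of mice that carry the floxed Fbln5 allele together with Ins1-Cre, a transgene in which the mouse insulin 1 promoter drives Cre recombinase in β-cells. Fbln5 encodes fibulin-5, a secreted protein of the extracellular matrix. The labels call the 4 samples of each group biological replicates, while the number of mice behind an extraction and the strain of these mice are not given in the sources used here. Islets also hold alpha, delta, endothelial and immune cells in which Ins1-Cre is not meant to act, so in these bulk samples fewer cells of a type and less RNA per cell cannot be told apart. Each genotype filled 1 of the 2 rows of arrays on the slide, so an effect of the row and one of the genotype cannot be told apart either.

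A dividing cell passes through G1, copies its DNA in S phase, and separates the copies in mitosis after G2. D-type cyclins with Cdk4 and Cdk6 inactivate the retinoblastoma protein and so release E2F factors, which switch on genes for DNA replication, and a later wave of transcription driven by B-Myb and FoxM1 switches on the G2/M genes. Adult β-cells divide rarely and rely on cyclin D2 and Cdk4 to do so, and FoxM1, PLK1 and CENP-A are known for their part in β-cell replication. The study examined the expression and roles of Fbln5 in β-cells, their proliferation included, and considered FoxM1, PLK1 and CENP-A as a candidate pathway.

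Most G2/M genes carry the letters of 2 known promoter motifs, and one of these, the CHR, is rare among the other members. A CCAAT box is bound by NF-Y, and the CHR (cell cycle genes homology region) recruits the B-Myb and FoxM1 complexes as well as the repressor complex of resting cells. The windows below run from 250 bases before to 50 bases after the transcription start in the RefSeq annotation of GRCm38.p6, 5′ to 3′ on the gene's strand. They belong to the G2/M genes that the study named or that mark dividing cells, and capitals mark the letters CCAAT and TTTGAA (CHR) or, on the opposite strand, ATTGG and TTCAAA.
Plk1 (chr7:122159185-122159484, plus strand): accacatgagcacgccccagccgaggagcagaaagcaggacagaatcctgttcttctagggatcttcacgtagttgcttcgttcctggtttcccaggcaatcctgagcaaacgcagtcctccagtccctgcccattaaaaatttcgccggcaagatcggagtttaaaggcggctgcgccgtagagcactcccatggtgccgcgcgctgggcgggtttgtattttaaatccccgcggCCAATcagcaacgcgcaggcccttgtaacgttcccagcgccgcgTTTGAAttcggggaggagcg
Cenpa (chr5:30666636-30666935, plus strand): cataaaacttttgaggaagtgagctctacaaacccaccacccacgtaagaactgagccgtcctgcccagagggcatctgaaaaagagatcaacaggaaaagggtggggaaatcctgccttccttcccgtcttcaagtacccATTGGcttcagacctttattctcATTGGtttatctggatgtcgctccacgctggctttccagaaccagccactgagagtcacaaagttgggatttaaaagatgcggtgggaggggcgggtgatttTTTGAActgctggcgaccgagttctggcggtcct
Cdk1 (chr10:69352863-69353162, minus strand): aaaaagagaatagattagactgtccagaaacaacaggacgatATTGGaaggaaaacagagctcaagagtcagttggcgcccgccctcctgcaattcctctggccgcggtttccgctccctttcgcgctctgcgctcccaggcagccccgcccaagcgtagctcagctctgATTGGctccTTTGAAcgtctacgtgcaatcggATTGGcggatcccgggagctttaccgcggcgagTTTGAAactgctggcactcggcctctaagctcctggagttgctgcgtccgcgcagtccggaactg
Mki67 (chr7:135716330-135716629, minus strand): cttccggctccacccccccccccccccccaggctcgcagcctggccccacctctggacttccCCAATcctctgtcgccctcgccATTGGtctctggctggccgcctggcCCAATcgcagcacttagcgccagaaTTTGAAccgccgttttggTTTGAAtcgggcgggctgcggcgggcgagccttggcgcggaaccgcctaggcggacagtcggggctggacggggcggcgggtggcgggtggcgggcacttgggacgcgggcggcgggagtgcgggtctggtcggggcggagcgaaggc
In Plk1 the CCAAT box began 14 bases before the start site and the CHR began at position 31 after it. Cdk1 and Mki67 each held the CHR letters at 2 places, and Cenpa held them once, beginning at position 17 after the start site.

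Among the 15 G2/M members with a window, 11 held the CHR letters (73.3%) and 14 held a CCAAT box (93.3%), on either strand and in any annotated window of the gene. The same letters stood in the windows of 20.2% and 41.1% of all 27025 genes with a window of this length. All 11 members with the CHR letters also held a CCAAT box, a pair found in 7.97% of all genes. Of the 8 S phase members with a window, 1 held the CHR letters (12.5%) and 4 held one of the E2F letter strings TTTCCCGC, TTTCGCGC, TTTGCCGC or TTTGGCGC (50%), against 2.60% of all genes. The E2F strings were also in 2 of 7 G1 members, Cdk2 and E2f2 (28.6%), in 2 of 8 inhibitor and checkpoint members, Cdkn2a and Chek2 (25%), and in 1 of the 15 G2/M members, Cdk1 (6.67%). The CHR letters were in 1 of 7 G1 members, E2f2, and in 1 of 8 inhibitor and checkpoint members, Cdkn2b. The motifs can overlap each other only at their ends. A match describes letters in the window and does not show that a factor binds there. No window was found in the table for Ccnd1, Ccnd2, Ccne2, Rb1, Mcm4, Ccna2, Cdc25c, Foxm1 and Aurkb.

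**Figure D1:**
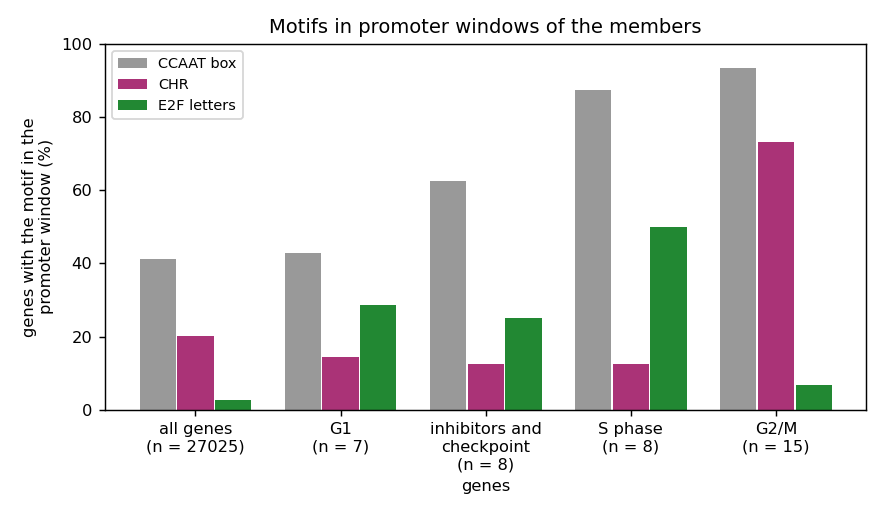
Share of genes whose promoter window of 300 bases holds a CCAAT box, the CHR letters or an E2F string (y axis, percent), for all 27025 genes and for the 4 classes of members, with the number of genes that have a window under each class. The CHR bar reaches 73.3% for the G2/M members and 20.2% for all genes, and the E2F bar reaches 50% for the S phase members.

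All signals below are log2 processed signals minus the array's 75th percentile, so that 0 is the level of the 75th percentile spot, and differences are βFbln5KO minus control on that scale. Levels of different genes are not compared, because each probe has its own response. The share of spots well above background was 56.6% to 58.8% in control and 52.6% to 56.6% in βFbln5KO (57.3% on control array 4 and 53.6% on βFbln5KO array 3, which recur below), no spot was saturated, and any pair of arrays correlated at 0.984 to 0.994 over the genes above background on all 8 arrays. The β, alpha and delta cell markers Ins2, Gcg and Sst were well above background on all 8 arrays. Fbln5 itself read −1.70, −1.32, −2.05 and −1.83 on control arrays 1 to 4 and −2.74, −2.40, −2.38 and −1.37 on the arrays labelled βFbln5KO 1 to 4. The difference was −0.50 (SE 0.29, n = 4 per group) with a limma adjusted p of 0.342, and the array labelled βFbln5KO replicate 4 lay within the control range. The number of arrays limits the precision.

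The RNA of the division machinery was measurable in these adult islets. Of the 47 members, 45 were well above background on at least 1 array and 38 on all 8, namely 8 of 11 G1 members, 6 of 8 inhibitor and checkpoint members, 9 of 9 S phase members and 15 of 19 G2/M members. For Cdk6 and the checkpoint kinase gene Chek2 no array gave a signal well above background. Cyclin E2 (Ccne2) and the spindle checkpoint genes Bub1 and Bub1b were above background on 1, 2 and 1 control arrays and on no βFbln5KO array, and no fold is given for them. Cdk2, Chek1, Cdc25c and Aurkb were above background on 4, 3, 2 and 1 control arrays and on 2, 2, 1 and 1 βFbln5KO arrays. The lowest signal called well above background was −5.01 to −4.79 on control arrays but −4.70 to −4.19 on βFbln5KO arrays. Fewer detections in βFbln5KO therefore do not show a lower signal.

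No member passed the adjusted test between βFbln5KO and control islets. With limma, 0 of 47 members had an adjusted p below 0.05 (lowest 0.0734, for the dim Cdk6), beside 6 of all 56605 probes (0.0106%). At an unadjusted p below 0.05, 1 member was higher in βFbln5KO and 0 were lower, against 3845 (16.8%) and 615 (2.68%) of all 22911 named genes. The methods' t-test likewise called 0 members after adjustment, and limma without a trend on the mean called 1, Cdk6. Among the 38 members above background on every array, 0 passed an unadjusted p of 0.05 upwards and 0 downwards, where 138 (1.01%) and 420 (3.08%) of 13650 named genes with the same detection were.

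Cdk6 was the member higher at an unadjusted p of 0.00886, and it carries no measured level. It read −6.87, −6.87, −6.96 and −6.77 on control arrays 1 to 4 and −6.17, −6.27, −6.32 and −6.70 on βFbln5KO arrays 1 to 4, all near the lowest signals of the arrays. The median difference of all 18859 probes that were dim on all 8 arrays was 0.47, and that of Cdk6 was 0.50 (SE 0.15). No fold is given for it. The other member dim throughout, Chek2, which encodes a kinase that answers DNA breaks, read −6.47, −6.45, −5.87 and −7.12 in control and −6.52, −6.58, −6.64 and −6.55 in βFbln5KO.

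Over the members above background on at least 1 array the median difference was 0.07, with 0.04 for G1 members, −0.06 for inhibitors and checkpoint members, −0.03 for S phase members and 0.10 for G2/M members. Over all named genes with the same detection it was −0.01. The 38 members measured on every array differed by between −0.37 (Foxm1) and 0.61 (Cenpf), and for 31 of them the standard error was larger than the difference. The width of the intervals shows how much change these arrays could have held. The 95% intervals of 37 of the 38 members lay within a 2-fold change either way, with Cenpf as the exception, and those of 22 lay within 1.5-fold. All 8 G1 members and 8 of 9 S phase members lay within 1.5-fold, and 2 of the 15 G2/M members did, Ccna2 and Aurka. For the other 13 G2/M members the intervals do not exclude a change of more than 1.5-fold in at least 1 direction.

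**Figure D2:**
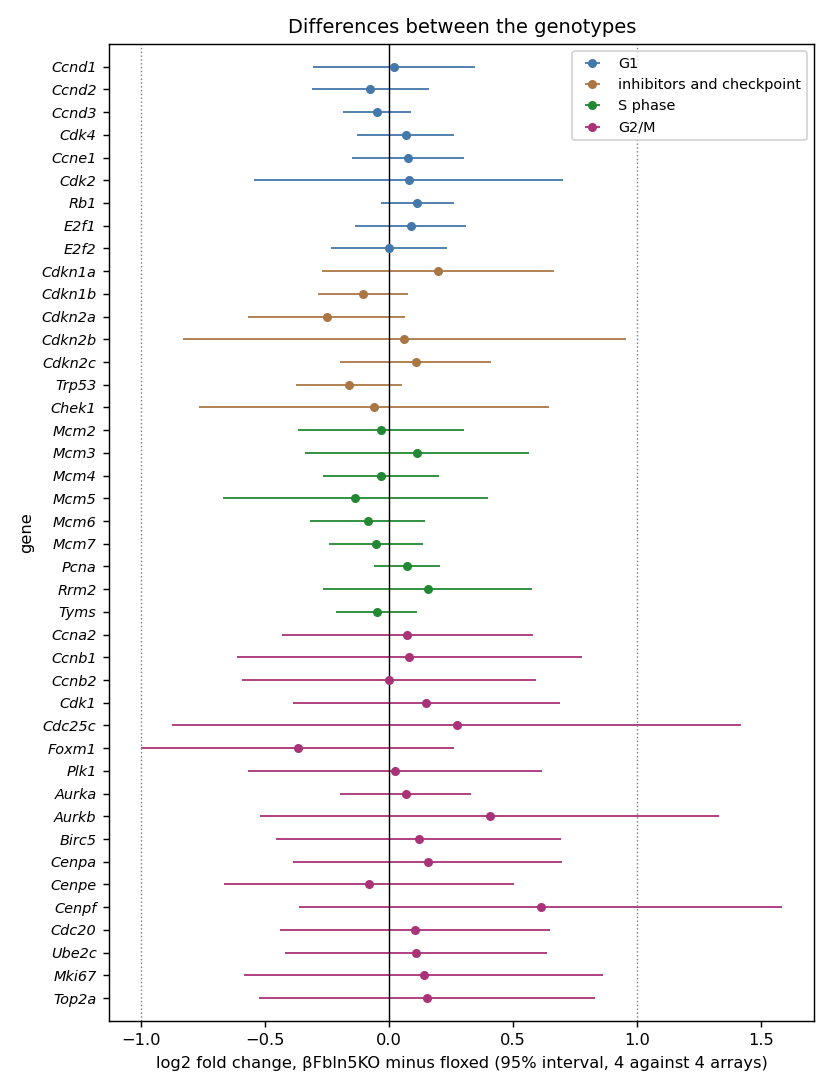
Difference between the genotypes (x axis, log2 fold change, βFbln5KO minus floxed control) for the 42 members above background on at least 1 array of each group. Points are limma estimates from 4 against 4 arrays, bars are 95% intervals, colours give the class and dotted lines mark a 2-fold change. Every interval includes 0, and the intervals of the G1 genes other than Cdk2 are shorter than those of most G2/M genes. Of the 42, Cdk2, Chek1, Cdc25c and Aurkb were dim on some arrays.

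The G1 engine was measured with the least spread. Cyclin D2 (Ccnd2), the main D-type cyclin of β-cells, read 7.88, 7.63, 7.88 and 7.95 on control arrays 1 to 4 and 7.74, 7.69, 7.85 and 7.77 on βFbln5KO arrays 1 to 4. The groups overlapped, and the difference of −0.08 (SE 0.10, adjusted p = 0.751) had an interval from a 1.24-fold fall to a 1.12-fold rise. The other 2 probes of Ccnd2 differed by −0.01 and −0.13. Its partner kinase Cdk4 read 3.95, 4.03, 4.01 and 4.24 in control and 4.03, 4.14, 4.31 and 4.01 in βFbln5KO, a difference of 0.07 (SE 0.09, adjusted p = 0.729). Cyclin D1 (Ccnd1), the other cyclin tied to β-cell growth and a gene the study named, read 4.00, 4.01, 4.25 and 4.42 in control and 4.32, 4.17, 4.43 and 3.83 in βFbln5KO. Both the lowest and the highest Ccnd1 signal were on βFbln5KO arrays, and the difference was 0.02 (SE 0.14, adjusted p = 0.959).

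Further along G1, Rb1, the retinoblastoma protein that holds E2F factors back, had the lowest p of this class among members with a measured level. Rb1 read 1.05, 1.35, 1.22 and 1.24 in control and 1.29, 1.31, 1.34 and 1.37 in βFbln5KO, a difference of 0.11 (SE 0.07, adjusted p = 0.339), and its second probe differed by −0.14. E2f1, an activator of replication genes, read −0.73, −0.91, −0.83 and −0.64 in control and −0.51, −0.62, −0.75 and −0.88 in βFbln5KO (difference 0.09, SE 0.10, adjusted p = 0.680). Cdk2, the kinase of cyclin E, read −4.68, −4.12, −4.28 and −4.32 in control and −4.73, −4.46, −3.78 and −4.12 in βFbln5KO (difference 0.08, SE 0.27, adjusted p = 0.913). For these genes too the groups overlapped. The remaining G1 members above background on all arrays, Ccnd3, Ccne1 and E2f2, differed by −0.05, 0.08 and 0.00. For Ccne2 the value of control array 1 was marked as an outlier by the scanner software and was left out, and no difference is given for this gene.

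Among the brakes, Cdkn2a was the only member above background on all arrays whose groups did not overlap, beside 383 (2.81%) of the 13650 named genes with the same detection. Cdkn2a encodes p16, which blocks Cdk4 and accumulates in ageing β-cells, and from another reading frame p19Arf, which protects p53. It read −2.68, −2.60, −2.67 and −2.74 on control arrays 1 to 4 and −2.98, −2.78, −2.76 and −3.16 on βFbln5KO arrays 1 to 4. All 4 βFbln5KO signals were below all 4 control signals, by a mean of −0.25 (SE 0.14). The unadjusted p was 0.107 and the adjusted p 0.328 with limma, and the methods' t-test gave an unadjusted p of 0.0439 and an adjusted p of 0.196. Its second probe was dim on all 8 arrays.

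Cdkn1b, which encodes the p27 inhibitor of adult β-cells, read 2.66, 2.57, 2.80 and 2.43 in control and 2.47, 2.62, 2.44 and 2.51 in βFbln5KO, a difference of −0.11 (SE 0.08, adjusted p = 0.499). Trp53, the p53 gene, read −1.04, −1.05, −1.07 and −0.75 in control and −1.17, −1.13, −1.02 and −1.24 in βFbln5KO. Its difference was −0.16 (SE 0.09, adjusted p = 0.359), with 1 βFbln5KO array inside the control range. Without control array 4 the Trp53 difference was −0.08, and without βFbln5KO array 3 it was −0.20. The p53 target Cdkn1a (p21) differed by 0.20 (SE 0.21), with its highest signal, 0.74, on βFbln5KO array 1. Without that array the Cdkn1a difference was 0.04, and without βFbln5KO array 2 it was 0.38. Cdkn2b (p15), Cdkn2c (p18) and the replication checkpoint kinase gene Chek1 differed by 0.06, 0.11 and −0.06. Cdkn2b had the widest control range of all 38 members, 3.57-fold, through a signal of −0.47 on control array 4 where the other control arrays read 1.13 to 1.37, and its second probe read 0.72 to 1.04 on the 4 control arrays. Without control array 4 the Cdkn2b difference was −0.36, and without control array 1 it was 0.25.

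The S phase genes encode the replicative helicase (Mcm2 to Mcm7), the sliding clamp (Pcna) and enzymes of nucleotide supply (Rrm2, Tyms), and all 9 were measured on every array. Their differences ran from −0.14 (Mcm5) to 0.16 (Rrm2), 3 above 0 and 6 below. This split rested on control array 4: without it 8 of the 9 were above 0, and the median difference of the class was 0.10 instead of −0.03. Pcna had the lowest p of the class and read 1.96, 2.15, 2.11 and 2.17 in control and 2.12, 2.13, 2.17 and 2.26 in βFbln5KO (difference 0.07, SE 0.06, adjusted p = 0.523). Mcm6 read 1.60, 1.68, 1.64 and 2.00 in control and 1.46, 1.68, 1.78 and 1.65 in βFbln5KO (difference −0.09, SE 0.10, adjusted p = 0.698). Control array 4 was the highest control array for 8 of the 9 genes. Mcm5, for example, read −0.76 on control array 4 and −1.84 to −1.51 on the other control arrays, a 2.13-fold range among controls.

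The G2/M members include Foxm1, Plk1 and Cenpa, the genes of that candidate pathway. Foxm1, the transcription factor of the G2/M wave, read −1.51, −2.18, −1.72 and −1.82 on control arrays 1 to 4 and −1.95, −3.03, −1.74 and −1.99 on βFbln5KO arrays 1 to 4. Its difference of −0.37 (SE 0.28, adjusted p = 0.499) was the lowest of all 38 members, the groups overlapped, and the interval ran from a 2.00-fold fall to a 1.20-fold rise. The lowest signal was that of βFbln5KO array 2, and without this array the difference was −0.08 (adjusted p = 0.844). The second Foxm1 probe was dim on all 8 arrays. Plk1, the mitotic kinase polo-like kinase 1, read −1.50, −1.84, −2.00 and −0.90 in control and −1.59, −1.72, −1.01 and −1.83 in βFbln5KO. The means were −1.56 ± 0.49 and −1.54 ± 0.37 (SD, n = 4), and the difference of 0.02 (SE 0.26, adjusted p = 0.975) had an interval from a 1.49-fold fall to a 1.53-fold rise. Cenpa, the histone variant that marks centromeres, read −3.04, −3.64, −3.41 and −2.80 in control and −3.07, −3.34, −2.65 and −3.21 in βFbln5KO (difference 0.16, SE 0.24, adjusted p = 0.776). Plk1 and Cenpa thus had the same highest array in each group, control array 4 and βFbln5KO array 3.

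Cdk1, the kinase that starts mitosis, read −3.16, −3.59, −3.74 and −3.03 in control and −3.22, −3.50, −2.79 and −3.41 in βFbln5KO (difference 0.15, SE 0.24, adjusted p = 0.786). Mki67, which encodes the proliferation marker Ki67, read −0.64, −1.36, −1.73 and −0.32 in control and −0.98, −1.07, −0.29 and −1.16 in βFbln5KO. The Mki67 difference was 0.14 (SE 0.32, adjusted p = 0.860), and the arrays allowed anything from a 1.50-fold fall to a 1.82-fold rise. Cenpf, a kinetochore protein and the G2/M member with the lowest p, read −2.30, −2.76, −3.15 and −1.78 in control and −2.29, −2.23, −0.66 and −2.37 in βFbln5KO. Its difference of 0.61 (SE 0.43, adjusted p = 0.459) was 0.20 without βFbln5KO array 3. The Cenpf spot lies in row 5 at the edge of the array. The gene's second probe was above background on 2 control arrays and on no βFbln5KO array. The fitted difference of that probe, −0.32, therefore cannot show whether the probes disagree.

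Of the 15 G2/M members above background on all arrays, 13 had a difference above 0 and 2, Foxm1 and Cenpe, below 0, while 6339 of the 13650 genes with the same detection were above 0. The sign of the class rested on single arrays. The median difference over all 19 G2/M members, including those dim on several arrays, was 0.10 over all arrays. It was −0.07 without βFbln5KO array 3, −0.03 without control array 3 and 0.28 without control array 4. With both control array 4 and βFbln5KO array 3 left out it was 0.13. The cyclin genes Ccna2, Ccnb1 and Ccnb2, the aurora kinase gene Aurka, the survivin gene Birc5, the anaphase genes Cdc20 and Ube2c, the kinetochore motor gene Cenpe and the topoisomerase gene Top2a had differences from −0.08 (Cenpe) to 0.15 (Top2a). Cdc25c and Aurkb were dim on 5 and 6 of the 8 arrays, and no fold is given for them. The differences fitted to these mostly dim signals, 0.27 and 0.41, were −0.19 and −0.01 with dim signals set to a floor, and the median difference of probes dim on all arrays was 0.47.

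**Figure D3:**
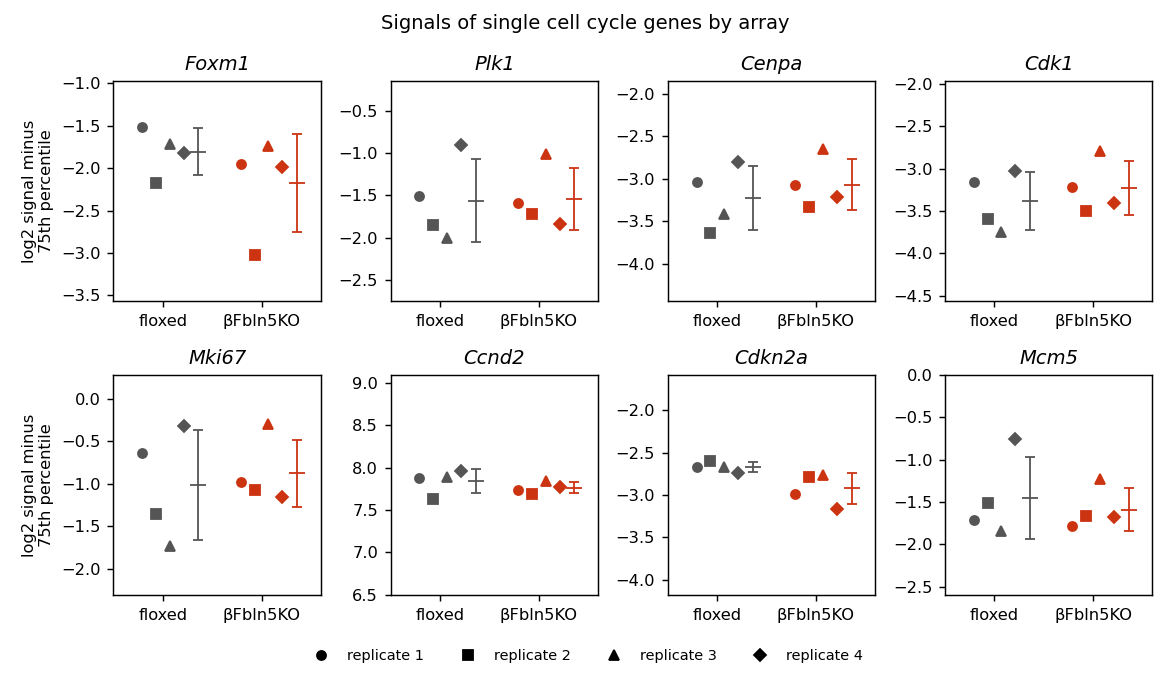
Signals of Foxm1, Plk1, Cenpa, Cdk1, Mki67, Ccnd2, Cdkn2a and Mcm5 on each array (y axis, log2 signal minus the array's 75th percentile, every panel spanning the same width). Symbols give the replicate number in control (floxed, grey) and βFbln5KO (red), and bars give the mean and SD of 4 arrays. Plk1, Cenpa, Cdk1 and Mki67 are highest on control replicate 4 and βFbln5KO replicate 3, Ccnd2 hardly varies, and the 2 groups of Cdkn2a do not overlap.

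The G2/M genes varied widely between islet extractions of the same genotype. Their median pooled SD within groups was 0.42, against 0.13 over all 13650 genes above background on all arrays, 0.14 for G1 members and 0.16 for S phase members. The highest control array exceeded the lowest by 1.39- to 2.66-fold (median 1.93-fold) and the highest βFbln5KO array exceeded the lowest by 1.26- to 3.29-fold (median 1.77-fold). For Plk1 these ranges were 2.14-fold and 1.77-fold.

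The variation ran through the class as a whole. Control array 4 was the highest control array for 14 of the 15 G2/M members, with Foxm1 as the exception, and βFbln5KO array 3 was the highest βFbln5KO array for 15 of 15. Both held for 14 of 15 G2/M members, for 6 of 9 S phase members, for 4 of 8 G1 members, for 2 of 6 inhibitor and checkpoint members and for 1463 of all 13650 genes with the same detection. As a mean over the 15 G2/M members, control arrays 1 to 4 deviated from the 8-array mean by 0.09, −0.38, −0.37 and 0.48 and βFbln5KO arrays 1 to 4 by −0.06, −0.24, 0.60 and −0.12. The group means of these deviations were −0.04 ± 0.41 in control and 0.04 ± 0.38 in βFbln5KO (SD, n = 4). Each group thus held 1 highest array, and in control array 1 lay between array 4 and arrays 2 and 3. The S phase members deviated in the same arrays by 0.33 on control array 4 and 0.14 on βFbln5KO array 3, and by −0.13 to 0.01 on the other 6. Of the dim members, Bub1, Cdc25c and Aurkb also read highest on these arrays, and Bub1b did not. Most signals of these members were not well above background, so their ranks add nothing to the pattern. The arrays were singled out after the signals had been seen, and no test was made of them.

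**Figure D4:**
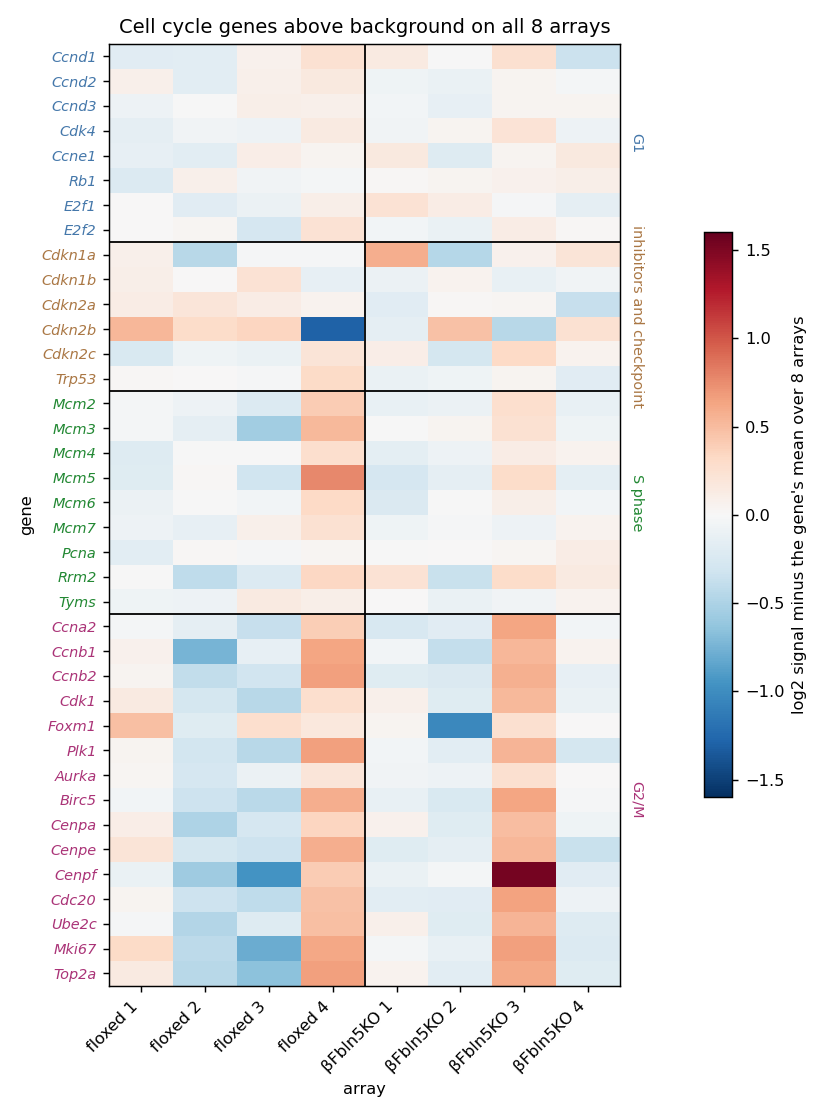
Deviation of each of the 38 members above background on all arrays (rows, by class) from its own mean over 8 arrays (colour, log2 units, red above and blue below). The columns are control (floxed) and βFbln5KO replicates 1 to 4, divided by the black line. In the G2/M block control replicate 4 and βFbln5KO replicate 3 are red in nearly every row, while the G1 block is pale throughout.

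Other genes of mitosis, listed apart from the members, showed the same arrays. Among 31 spindle, kinetochore, condensin and cytokinesis genes above background on all arrays, control array 4 was the highest control for 23 and βFbln5KO array 3 the highest βFbln5KO array for 24, with mean deviations of 0.31 and 0.31. Of the 47 genes of that list 38 had a promoter window, and 27 of these windows held the CHR letters (71.1%). The 34 replication genes deviated by 0.13 and 0.05 on these arrays.

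Markers of the cell types in the islet samples were set beside this variation. All 7 endothelial markers, among them Pecam1 and Cdh5, were above background on all arrays, and their mean deviation was highest on the same arrays but small, at 0.08 on control array 4 and 0.08 on βFbln5KO array 3 within ranges of −0.08 to 0.08 and −0.10 to 0.08. The 8 macrophage markers, all above background throughout, lay at −0.11 to 0.12 on control and at −0.22 to 0.48 on βFbln5KO arrays, with 0.04 on control array 4 and −0.22 on βFbln5KO array 3. Of 7 mesenchymal markers, 6 were above background throughout, with 0.06 and −0.17 on these arrays inside ranges of −0.33 to 0.49 and −0.17 to 0.06. Of 6 lymphocyte markers 2 were above background throughout, Cd3e and Ptprc, with list values of 0.04 and −0.18 on these arrays. Of 6 duct markers 3 were, and the list read 0.15 and −0.03 on these arrays. Acinar enzymes, 9 of 10 above background throughout, lay at −0.40 to 1.35 on control and at −1.28 to 0.60 on βFbln5KO arrays, and read 1.04 on control array 4 but −1.13 on βFbln5KO array 3. All 9 acinar genes had lower means in βFbln5KO (median difference −0.93), and 0 passed the adjusted test (lowest adjusted p = 0.129). The β-cell markers stayed within −0.07 to 0.11 on all arrays. The part of these cell types in the G2/M variation was not tested.

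**Figure D5:**
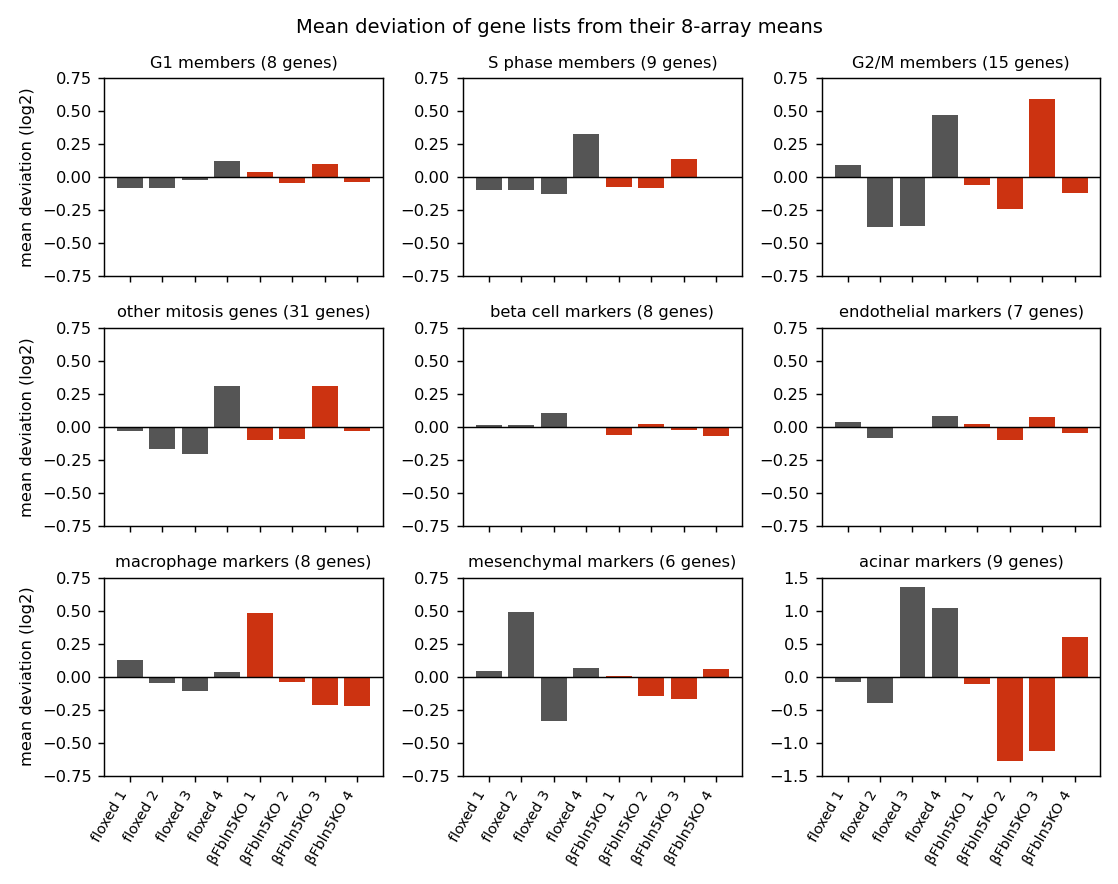
Mean deviation of gene lists from their 8-array means (y axis, log2 units, the acinar panel on a wider scale) on control (floxed, grey) and βFbln5KO (red) arrays 1 to 4, over the genes above background on all arrays. The G2/M members and the other mitosis genes lie above 0 on control array 4 and βFbln5KO array 3, by 0.48 and 0.60 for the members, and none of the marker lists shows those heights on both arrays.

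The wider cell cycle list held 161 further genes, and 0 of them passed limma's adjusted test. At an unadjusted p below 0.05, 5 were higher and 1 was lower in βFbln5KO: 0 of 20 further cyclins and their kinases, 0 of 16 E2F and DREAM complex genes, 0 of 39 replication genes, 4 of 47 mitosis genes (all higher), 2 of 21 p53 pathway genes (1 higher, 1 lower) and 0 of 18 β-cell growth genes. These counts stand beside 16.8% higher and 2.68% lower over all named genes. Among the 133 above background on all arrays, 1 was higher and 1 lower, beside 1.01% and 3.08% of the named genes with that detection. The lower one was Mdm4, an inhibitor of p53, which read −1.64, −1.81, −1.58 and −1.75 in control and −2.20, −2.04, −1.91 and −2.06 in βFbln5KO. The groups did not overlap, the difference was −0.36 (SE 0.10, unadjusted p = 0.00651, adjusted p = 0.0728), and the other 3 probes of Mdm4 differed by −0.22, −0.41 and −0.22. The higher one was Smc4, a core subunit of the condensin complex, at −0.22, −0.21, −0.13 and −0.05 in control and 0.04, −0.01, 0.12 and 0.01 in βFbln5KO. Its difference was 0.19 (SE 0.06, unadjusted p = 0.0118, adjusted p = 0.0795), but its other 2 probes, both above background on all arrays, differed by 0.05 and −0.09.

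The other genes with an unadjusted p below 0.05 were dim on most or all arrays and are named here after their values were seen. The spindle checkpoint kinase gene Ttk was dim on all control arrays and well above background on 2 βFbln5KO arrays. It read −5.25, −7.07, −5.67 and −4.95 in control and −4.37, −2.98, −3.82 and −5.29 in βFbln5KO, the groups overlapped, and the adjusted p was 0.122. The mitotic kinesin gene Kif14, with the same detection and a spot in row 2 of the array, read −3.80, −6.45, −1.42 and −6.31 in βFbln5KO (adjusted p = 0.200). For both genes 2 of the βFbln5KO signals were themselves dim, so no fold is given. The other probes of Ttk and Kif14 were dim throughout, and the median difference of all probes dim on the 8 arrays was 0.47, as given beside Cdk6. Kif15 and Eda2r were dim on all 8 arrays, like Cdk6, and no fold is given for them either.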

How the data were processed

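Islet RNA of 4 control (floxed) and 4 βFbln5KO samples was read on 1 slide. The authors deposited for each spot the processed signal, an intensity that the scanner software (Agilent Feature Extraction 11.0.1.1, per the labels) had background-subtracted and spatially detrended, with flags for outliers and for spots well above background, without normalization between arrays. They also deposited a table of 35553 probes whose values are a ratio, the processed signal over 1 number per array (all values of probes with 1 spot within 0.01%, column medians 0.388 to 0.416, no centring by gene). Their methods name GeneSpring for normalization.

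From the log2 signal of each of the 59305 non-control spots the array's 75th percentile was subtracted (709 to 1012 in control, 910 to 1055 in βFbln5KO). Outlier-marked values were left out, and spots of a probe were averaged to 56605 probes, of which 32994 took a symbol through RefSeq accessions. All probes were fitted with limma 3.58.1 (R 4.3.3, lmFit, eBayes with trend) and adjusted after Benjamini-Hochberg over all probes, with a threshold of 0.05, and the fit was tested on simulated data. Plots were made in Python 3.11.15 with matplotlib 3.10.9. The smallest two-sided p of an exact permutation test of 4 against 4 arrays is 0.029. Same-numbered arrays did not deviate together in every pair (r = 0.20, 0.36, −0.26 and −0.05 over 13552 genes), so the numbers were not taken as pairs. Across numbers r ran from −0.32 to 0.38, highest for control array 3 with βFbln5KO array 4, and was 0.22 for control array 4 with βFbln5KO array 3. The labels pair no such arrays, and none were crossed.

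The members and all lists were chosen with earlier results of these data known. Signals on every array are given for Foxm1, Plk1, Cenpa, Chek2, Cdk1, Cdk2, Mki67, Ccnd1, Ccnd2, Cdk4, Cdkn1b and Cdkn2a, for members at an unadjusted p below 0.05, and for the 2 members of each class with the smallest p among those above background on at least 4 arrays. Genes of the wider list are named if they met both limits. No fold is given for a probe that was dim on all arrays of a group. Where a fitted difference of such a probe is printed, it is not read as a change. Alternatives were normexp (offset 50, on median spot signals because no mean signal is in the output), quantile normalization, a filter to probes above background on at least 4 arrays, a floor on dim signals, the methods' t-test, outlier-marked spots kept, eBayes without trend, the mean of a gene's probes, a replicate block, the deposited table, the outer 16 spot rows left out, and each array left out in turn. A setting without control array 4 and βFbln5KO array 3 was chosen after seeing the data.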

Additional observations from a re-analysis of the deposited data

Results flagged for a closer look

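In 6 of 77 groups of 4 arrays 1 member's signal lay apart from the other 3 by more than Dixon's 95% limit, and chance alone flags about 1 in 20 groups. On control array 4, Cdkn2b read −0.47 where the other controls read 1.13 to 1.37, and Trp53 read −0.75 where they read −1.07 to −1.04. On βFbln5KO array 3, Mcm2 read −0.33 (others −0.72 to −0.69), Ccnb2 −0.41 (others −1.22 to −1.12), Cenpf −0.66 (others −2.37 to −2.23) and Cdc20 −0.44 (others −1.27 to −1.17). All 6 are on the arrays that were highest for the G2/M members.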

How the results depend on the processing

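No member passed the adjusted threshold under any alternative except eBayes without trend and the arrays without βFbln5KO replicate 4, where 1 did, the dim Cdk6 (with 6184 and 11206 probes of all kinds higher in those fits). Members higher at an unadjusted p below 0.05 went from 1 to 0 with normexp, quantile normalization, the deposited table, the floor and the filter, and members lower went from 0 to 1, Cdkn2a, without trend and with the methods' t-test. Wider list genes higher, 5 at first, were 0 with normexp, 3 with quantile normalization, 1 with the filter, 2 with the floor, 3 with the methods' t-test and 2 in the deposited table. Those lower, 1 at first, were 3 with normexp, 4 with quantile normalization, 2 with the methods' t-test and 2 without both arrays high in G2/M members. Without trend 1 wider gene, Mdm4, was called, beside 6184 higher and 394 lower of all 56605 probes. The median difference of inhibitors and checkpoint members, −0.06, was 0.0028 with quantile normalization, 0.018 with the mean of a gene's probes and −0.12 without both arrays. The cause was not tested. With each array left out in turn, members called ranged from 0 to 1, members higher from 1 to 2 and lower from 0 to 1. Wider genes called ranged from 0 to 3 (Ttk, Kif15 and Eda2r, without βFbln5KO replicate 4, where 11206 of all 56603 probes were called higher). Wider genes higher ranged from 3 to 10 and lower from 1 to 5. The median of inhibitors and checkpoint members ranged from −0.084 to 0.064. Shares of all named genes at an unadjusted p were not counted by setting. The counts above are therefore not read as results about these lists.

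With the replicate number as a block, 0 members were called and the lowest adjusted p was 0.221. The block changed no call of a member. Differences of members that passed no test changed sign for 0 to 14 of them by setting. Among them were Foxm1 (0.08) and Cdkn2a (0.04) with the mean of a gene's probes, and Cenpf (−0.32) with the outer rows left out. The other probes of Foxm1 and Cdkn2a were dim on all arrays, and probes of this kind had a median difference of 0.47. Without the outer rows Cenpf was read through its other probe, which was above background on no βFbln5KO array. These sign changes of Foxm1, Cdkn2a and Cenpf involve dim probes and are not read as changes of the genes. Few arrays and, for 9 members, signals near background limit what could be seen.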
